A study of Mus musculus with 26 samples.

Results

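The protein genes of the mitochondrial ribosome were followed in the proximal small intestine (SI) of mice with an inducible gene knockout in intestinal epithelial cells (IECs). Members were chosen by name alone, as genes whose symbol is Mrpl or Mrps followed by a number and at most 1 letter. This gave 78 of the 55487 genes in the table, 49 named *Mrpl* and 29 named *Mrps*, and the 6 pseudogenes of the family were left out. Knockout mice (tamIEC-KO, labelled tg) carried fl/fl alleles of the targeted gene and a tamoxifen-inducible Cre recombinase, Villin-creERT2, which the villin promoter drives in the intestinal epithelium. Control mice (labelled wt) were fl/fl littermates without the Cre transgene, so that the floxed alleles were shared by all groups. Mice were on the C57BL/6N background, adult (8 to 12 weeks in the study's account of this model), and pieces of intestine were taken 3 or 7 days after the last of 5 daily tamoxifen injections. There were 7 mice per genotype at 3 days and 6 per genotype at 7 days, and each library came from 1 mouse. The pieces hold epithelium, lamina propria and muscle, so a lower value can come from fewer cells of a type or from less RNA per cell, and the 2 cannot be told apart.

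The mitochondrial ribosome translates the few mRNAs encoded by mitochondrial DNA, all of which are for subunits of the oxidative phosphorylation complexes. Its RNAs are mitochondrial transcripts, but all of its proteins are made in the cytosol from nuclear genes and imported. Some descend from bacterial ribosomal proteins and others joined the ribosome in the mitochondrial lineage. Names do not always give the subunit: Mrps30 and Mrps18a sit in the large subunit, and Mrps36 is now known as a subunit of the oxoglutarate dehydrogenase complex. By structure, 51 members belonged to the large and 26 to the small subunit, and *Mrps36* to neither.

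Total counts per library were between 3720168 and 6338016. CPM are a gene's counts scaled to the library total. Transcripts of 10 enterocyte genes summed to between 718 and 26890 CPM. In 7 libraries a list of pancreatic acinar or of stomach genes summed to over 5000 CPM (5 libraries of day 3 and 2 of day 7). The highest stomach sums were 25955 CPM in control replicate 5 of day 3, 12022 CPM in control replicate 2 of day 7 and 10481 CPM in knockout replicate 1 of day 3, and the enterocyte sums of the first and the last were 880.5 and 718 CPM.

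Summed over the 78 members, their transcripts took a larger share of the library in knockout than in control mice at 7 days. The share was between 0.286% and 0.312% of counts (median 0.301%) in control mice of 7 days and between 0.332% and 0.398% (median 0.378%) in knockout mice, with no overlap. At 3 days it was between 0.232% and 0.347% (median 0.305%) in control mice and between 0.257% and 0.368% (median 0.351%) in knockout mice, and the groups overlapped. The spread between mice of a group was wider at 3 days, with an SD of 0.0402 in control and 0.0416 percentage points in knockout mice, than at 7 days, with 0.00928 and 0.0237.

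**Figure D1:**
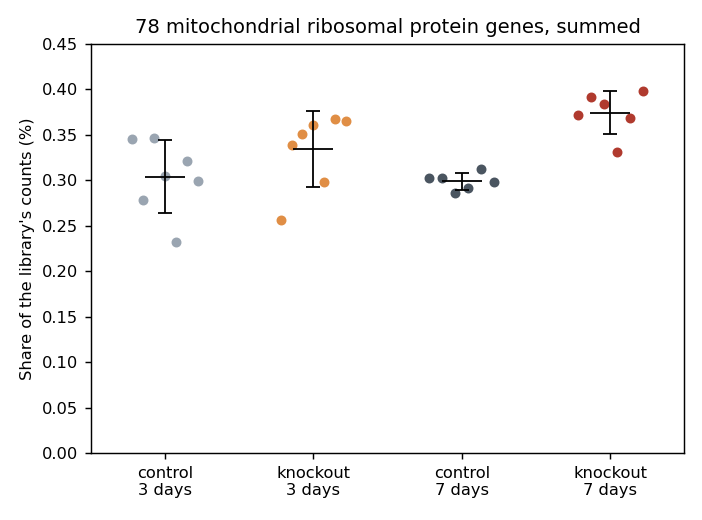
Share of each library's counts (y axis, %) taken by the 78 genes together, for the 4 groups (x axis). Points are mice (7 per group at 3 days, 6 at 7 days), and bars give the mean and SD; the knockout mice of 7 days, between 0.332% and 0.398%, all lie above the control mice of that day.

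At 7 days most mitochondrial ribosomal protein genes were higher in knockout mice. All 78 members passed the filter on low counts. Past the threshold of edgeR's quasi-likelihood test (Benjamini-Hochberg adjusted p under 0.05 over all genes tested), 45 were higher and 4 lower, and 29 did not pass. Of all 20259 genes tested 38.5% passed, 19.7% higher and 18.8% lower. The median log2 fold change of the members was 0.39 (all genes -0.02), and 63 of 78 were positive (48.8% of all genes). The level of every knockout mouse was above that of every control mouse for 30 members and below it for 2, where 11% and 11.6% of all genes showed this. The changes were small. Of the 45 that rose, 23 exceeded 1.5-fold and 3 exceeded 2-fold, with log2 values between 0.25 and 1.14. Where the mean was 100 counts or more, 40 of 64 members rose and 4 fell, against 33.0% and 27.0% of the 6891 genes at that depth, and the medians were 0.40 and 0.06.

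**Figure D2:**
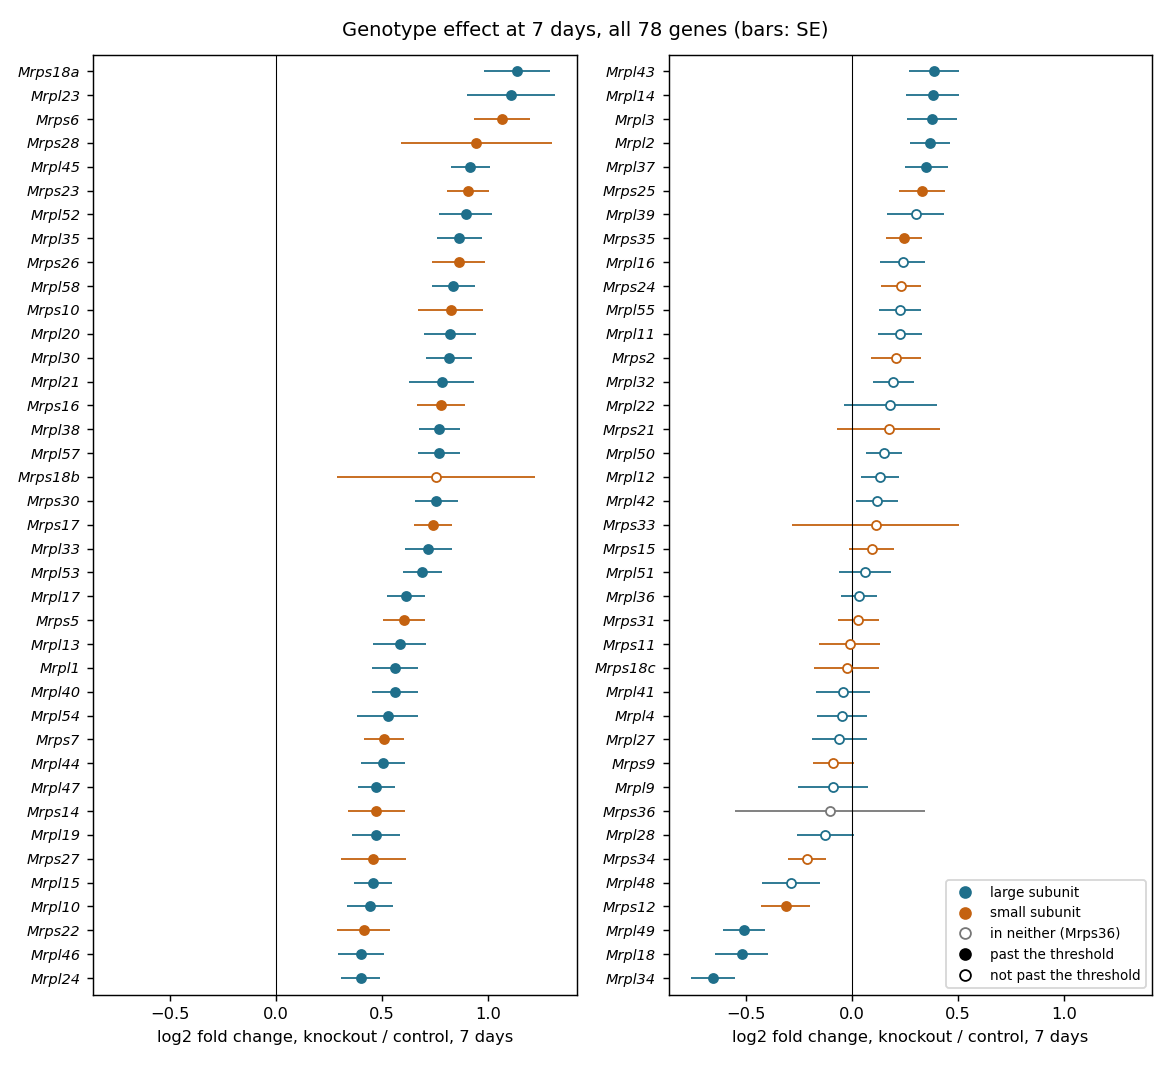
Log2 fold change between knockout and control mice at 7 days (x axis) with its SE for each of the 78 genes, ordered by size, the upper 39 in the left panel. Filled points are past the threshold: 45 genes lie to the right of 0 and 4, *Mrpl34*, *Mrpl18*, *Mrpl49* and *Mrps12*, to the left.

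In both subunits more genes rose than fell, where 19.7% of all genes rose and 18.8% fell. Of the large subunit, 31 of 51 rose and 3 fell (median 0.40), and of the small subunit 14 of 26 rose and 1 fell (median 0.37). Of the proteins whose ribosomal name begins with u or b, classed as having a bacterial homologue, 25 of 46 rose and 3 fell (median 0.38). Of those whose name begins with m, classed as specific to mitochondria, 20 of 31 rose and 1 fell (median 0.41). The second class holds *Mrps18a* (mL66) and *Mrps18b* (mS40), although both are homologues of a bacterial protein. Differences between these classes were not tested. The exons of 31 members overlap those of another gene by at least 20 bases. Among the 47 others, 27 rose and 2 fell (median 0.41).

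The member with the largest rise was *Mrps18a*, at chr17:46110986-46128910 (GRCm38, plus strand), which encodes mL66. Its level in control mice of 7 days was between 13.5 and 32.4 CPM (median 17.1) and in knockout mice between 35.5 and 49.0 CPM (median 38.9). All knockout mice were above all control mice. The log2 fold change was 1.14 (SE 0.16, edgeR adjusted p = 1.18e-05), a 2.20-fold rise. Mammals have 3 homologues of the bacterial protein S18, and the other two, *Mrps18b* (mS40) and *Mrps18c* (bS18m), belong to the small subunit. *Mrps18c* was between 8.21 and 13.9 CPM in control and between 9.90 and 11.8 CPM in knockout mice of 7 days, a log2 difference of -0.02 (SE 0.15) that did not pass. Its exons overlap those of *Gm43511* on the same strand, and its counts held a fraction in 19 of the 26 libraries. *Mrps18b* was near the limit of counting, between 0.508 and 4.78 CPM in control and between 0.906 and 5.10 CPM in knockout mice (log2 fold change 0.76, SE 0.47, not past the threshold). The exons of *Mrps18b* overlap those of *Gm16279* on the other strand, with a fraction in 9 libraries. The highest control value of both *Mrps18a* and *Mrps18b* was that of replicate 2, the library of 7 days with 12022 CPM of stomach transcripts. Without it, *Mrps18b* had a log2 fold change of 1.31 (edgeR adjusted p = 0.0206). At 3 days *Mrps18a* was between 15.4 and 29.3 CPM in control and between 17.8 and 29.96 CPM in knockout mice, and the groups overlapped (log2 fold change 0.29, SE 0.16, not past the threshold).

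Around the tunnel exit of the large subunit, where the new protein leaves and meets the inner membrane, 6 of 8 members rose at 7 days and 0 fell (median 0.49). Of all genes 19.7% rose and 18.8% fell, and of those with a mean of 100 counts or more 33.0% and 27.0%. Whether single regions of the ribosome differ from these shares was not tested. *Mrpl45*, which encodes the membrane-facing protein mL45, is at chr11:97315716-97329920. It was between 49.8 and 55.5 CPM in control mice (median 51.9) and between 84.8 and 108 CPM in knockout mice (median 98.1). The control mice were tightly grouped and the knockout mice all higher, with a log2 fold change of 0.92 (SE 0.09, edgeR adjusted p = 2.73e-07). *Mrpl23* (uL23m, chr7:142532686-142540747) is a protein of the tunnel rim kept from bacteria. It was between 1.86 and 3.66 CPM (median 3.20) in control mice and between 5.12 and 7.38 CPM (median 6.05) in knockout mice. This was a log2 fold change of 1.11 (SE 0.21, edgeR adjusted p = 0.000286), on a mean of 25.8 counts per library. At 3 days *Mrpl23* was between 3.49 and 8.18 CPM in control mice (median 5.32) and between 3.53 and 9.23 CPM in knockout mice (median 4.91). *Mrpl44* (mL44), whose fold is that of an RNase III enzyme, rose by less: between 15.7 and 23.0 CPM in control and between 23.4 and 31.7 CPM in knockout mice (log2 fold change 0.50, SE 0.10). Its exons overlap those of *Wdfy1* on the other strand, which rose by 1.04 on the log2 scale. The counting is not stated to use strand, so that reads on the bases shared by such a pair cannot be told apart. Reads on several genes were split into fractions, and counts of *Mrpl44* held a fraction in 1 of the 26 libraries.

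The stalk, where translation factors dock, is formed by 5 members, and 3 of them rose at 7 days (19.7% of all genes). *Mrpl53* (mL53) rose from between 37.7 and 46.5 CPM to between 58.7 and 76.3 CPM (log2 fold change 0.69, SE 0.09), and the genotypes did not overlap. An annotated transcript on the same strand, *Gm42688*, shares exons with it and had a log2 fold change of 0.68. Counts of *Mrpl53* held a fraction in 12 of the 26 libraries. *Mrpl54* (mL54, 0.53, SE 0.14) and *Mrpl10* (uL10m, 0.44, SE 0.11) rose with overlapping groups. The exons of *Mrpl10* overlap those of *Gm11574* on the other strand, and its counts held a fraction in 13 libraries. *Mrpl12* (bL12m), the flexible protein that recruits the factors, was between 77.8 and 107 CPM in control and between 92.6 and 114 CPM in knockout mice (0.13, SE 0.09) and did not pass, nor did *Mrpl11* (uL11m, 0.23, SE 0.10).

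In the central protuberance, which faces the small subunit and the tRNAs, 4 of 8 members rose and 1 fell. Of all genes 19.7% rose and 18.8% fell, and of those with a mean of 100 counts or more 33.0% and 27.0%. With 8 members these counts are not clearly apart from those shares. *Mrpl58* (mL62), a peptidyl-tRNA hydrolase that rescues stalled ribosomes and is also built into this site, rose from between 29.2 and 42.8 CPM (median 33.5) to between 55.4 and 68.6 CPM (median 59.2). Its log2 fold change was 0.84 (SE 0.10, edgeR adjusted p = 2.96e-06). Of the 30 other large-subunit members, 18 rose and 2 fell. Among them *Mrpl52* (mL52, chr14:54426909-54429756) rose from between 50.03 and 69.4 CPM (median 62.4) to between 85.7 and 133 CPM (median 115), a log2 fold change of 0.89 (SE 0.12, edgeR adjusted p = 1.27e-05).

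In the small subunit the largest rise was that of *Mrps6* (bS6m, chr16:92058270-92112227), a protein of the platform. It was between 13.2 and 28.9 CPM in control mice of 7 days (median 18.8) and between 35.0 and 42.5 CPM in knockout mice (median 38.9), with no overlap (log2 fold change 1.07, SE 0.13, edgeR adjusted p = 2.72e-06). Its exons overlap those of *Slc5a3* on the same strand, the myo-inositol transporter, which rose by 1.33 on the log2 scale. The authors' counting splits shared reads between the genes, and counts of *Mrps6* held a fraction in 6 of the 26 libraries. *Mrps10* (uS10m), a protein of the head, rose from between 6.84 and 10.97 CPM to between 13.0 and 20.8 CPM (0.82, SE 0.15, edgeR adjusted p = 0.000294), also with no overlap. *Mrps28* (bS1m) passed with a log2 fold change of 0.94 (SE 0.36, edgeR adjusted p = 0.0437). Its values overlapped, between 1.35 and 6.84 CPM against between 3.62 and 13.8 CPM, and the call was lost in 7 of the 12 fits that each left out 1 mouse (knockout replicates 2, 3 and 4, control replicates 1, 2, 4 and 5). *Mrps36*, the member outside the ribosome, was at or under 3.17 CPM in all groups of 7 days (log2 fold change -0.10, SE 0.45, not past the threshold).

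The 4 members that went the other way at 7 days were 3 of the large subunit and 1 of the small. *Mrpl34* (bL34m, chr8:71464959-71465747), a short basic protein that packs into the large rRNA, was between 230 and 316 CPM in control mice of 7 days (median 269) and between 151 and 189 CPM in knockout mice (median 166). All knockout mice were below all control mice, and the log2 fold change was -0.65 (SE 0.11, edgeR adjusted p = 6.3e-05). *Mrpl49* (mL49, chr19:6053622-6057785) was between 23.7 and 29.1 CPM in control and between 17.3 and 19.9 CPM in knockout mice, again with no overlap (-0.51, SE 0.10, edgeR adjusted p = 0.000404). *Syvn1*, which overlaps *Mrpl49* on the other strand, did not pass (-0.12), and counts of *Mrpl49* held a fraction in 11 of the 26 libraries. *Mrpl18* (uL18m, chr17:12911349-12916345), a protein of the central protuberance, was between 62.0 and 94.7 CPM in control and between 41.8 and 67.2 CPM in knockout mice (-0.52, SE 0.13, edgeR adjusted p = 0.00282), and the groups overlapped. The exons of *Mrpl18* overlap those of *Tcp1* on the other strand, a subunit of the cytosolic chaperonin, which rose by 0.72. Counts of *Mrpl18* held a fraction in 16 libraries. *Mrps12* (uS12m), a protein of the decoding centre, fell least, by 0.31 on the log2 scale (SE 0.12, edgeR adjusted p = 0.0425). The call for *Mrps12* was lost in 4 of 12 fits that left out 1 mouse each (knockout replicates 1 and 4, control replicates 2 and 3) and without the 2 libraries of 7 days with the most pancreas or stomach transcripts (-0.20).

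**Figure D3:**
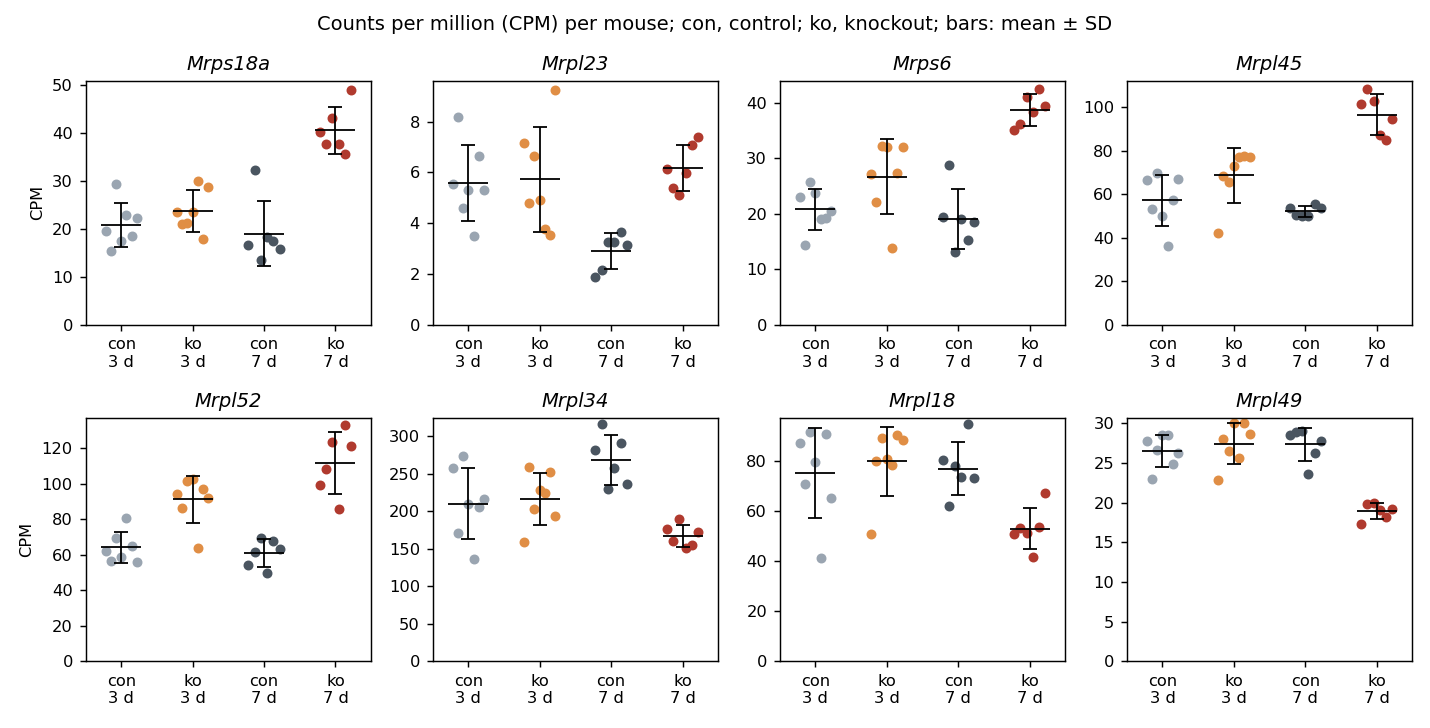
Level in CPM (y axes, from 0) of 8 named genes in every mouse of the 4 groups (x axes), with the mean and SD as bars (7 mice per group at 3 days, 6 at 7 days). *Mrps18a*, *Mrpl23*, *Mrps6*, *Mrpl45* and *Mrpl52* are higher in all knockout mice of 7 days than in the control mice of that day, *Mrpl34* and *Mrpl49* are lower in all, and *Mrpl18* overlaps.

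Since members of both directions sit in 1 ribosome, the 250 bases before the transcription start are shown for the member with the largest rise, the member with the largest fall and, of the other members named at 7 days, the one with the most matches to the motifs searched (RefSeq, GRCm38.p6, plus strand, 5′ to 3′). The positions are chr17:46110754-46111003 for *Mrps18a*, chr8:71464676-71464925 for *Mrpl34* and chr11:97315466-97315715 for *Mrpl45*. Capitals mark matches to the NRF1 motif.
Mrps18a: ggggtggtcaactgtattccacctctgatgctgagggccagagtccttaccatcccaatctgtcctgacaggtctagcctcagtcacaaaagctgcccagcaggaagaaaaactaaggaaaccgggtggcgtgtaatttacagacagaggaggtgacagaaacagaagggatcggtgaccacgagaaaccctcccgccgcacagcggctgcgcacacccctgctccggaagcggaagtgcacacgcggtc
Mrpl34: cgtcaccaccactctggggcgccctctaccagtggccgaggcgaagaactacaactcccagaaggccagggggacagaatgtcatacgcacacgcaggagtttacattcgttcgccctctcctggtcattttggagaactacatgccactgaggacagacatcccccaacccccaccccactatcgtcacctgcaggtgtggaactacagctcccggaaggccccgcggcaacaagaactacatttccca
Mrpl45: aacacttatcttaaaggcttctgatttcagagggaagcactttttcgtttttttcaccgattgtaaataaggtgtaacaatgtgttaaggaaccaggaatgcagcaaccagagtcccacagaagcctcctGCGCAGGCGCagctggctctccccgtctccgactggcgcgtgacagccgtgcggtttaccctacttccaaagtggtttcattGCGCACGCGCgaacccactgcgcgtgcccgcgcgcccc

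The motifs searched, on both strands, were those of NRF1 (GCGCA, any base, then GCGC) and GABPA (CCGGAAGT), 2 factors known for genes of mitochondrial proteins, of YY1 (AANATGGCG), of ATF4 with its partner (TGATGNAA), the factor of the integrated stress response, and the E-box bound by MYC (CACGTG). *Mrpl45* held 2 NRF1 matches before the start, which begin 120 and 38 bases before it. None of the 5 motifs was found in the bases shown for *Mrps18a* and *Mrpl34*, but *Mrps18a* held a YY1 match in the longer window used next, which runs past the start. A window from 250 bases before to 50 bases after the start was at hand for 69 members and for 27025 genes in all. The NRF1 motif was in 18.8% of the members' windows and 5.19% of all windows, the GABPA motif in 17.4% and 4.31%, and the YY1 motif in 15.9% and 2.76%. The E-box was in 7.25% and 8.09%, and the ATF4 motif in 0 of 69 and 4.51%. Among the 38 members with a window that rose at 7 days, 18.4% had the NRF1, 18.4% the GABPA and 15.8% the YY1 motif, and among the 31 others 19.4%, 16.1% and 16.1%. A match is a run of letters and does not show binding.

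Other genes moved with the genotype at 7 days. Of 10 enterocyte genes 9 were lower (18.8% of all genes), and the sum of the 10 was between 14116 and 26890 CPM in control and between 3438 and 4988 CPM in knockout mice. All 8 proliferation genes were lower (sums between 615 and 788 CPM against between 158 and 257 CPM), as were 3 of 4 intestinal stem cell genes. Of 4 Paneth cell genes 0 passed by edgeR or DESeq2, and 1 was lower at an unadjusted p under 0.05. Of 5 goblet cell genes 1 was lower, with sums between 2098.5 and 3936.6 CPM in control and between 2063.2 and 2730.3 CPM in knockout mice. Of 6 smooth muscle genes 0 passed by edgeR or DESeq2 and 0 at an unadjusted p under 0.05, with sums between 579 and 1037 CPM in control and between 663 and 968 CPM in knockout mice, and 2 of the 5 immune cell genes tested were lower. All 8 genes of the integrated stress response list were higher at 7 days and all 8 at 3 days (19.7% and 1.11% of all genes). The part of these shifts in the members' values was not tested. Without the 2 libraries of 7 days with the most pancreas or stomach transcripts, 45 members rose and 3 fell (median 0.40), where 19.5% of all genes rose and 19.4% fell.

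At 3 days the members were on the whole slightly higher in knockout mice, but 1 of 78 passed the threshold. Of all 20760 genes tested at this day 1.43% passed, 1.11% higher and 0.323% lower. For 0 members were all knockout mice above or below all control mice (0.356% and 0.491% of all genes). The member was *Mrpl52*, between 56.3 and 80.6 CPM in control mice (median 62.3) and between 64.0 and 103 CPM in knockout mice (median 94.6). The lowest knockout mouse was replicate 5, and the groups overlapped (log2 fold change 0.61, SE 0.13, edgeR adjusted p = 0.0229). The call did not hold in 8 of the 14 fits that left out 1 mouse each, namely those without knockout replicate 2, 3 or 4 or control replicate 1, 2, 4, 6 or 7. The median log2 fold change of the members was 0.24 (all genes -0.03) and 67 of 78 were positive (46.4% of all genes). At an unadjusted p under 0.05, 25 members were higher and 0 lower, where 7.52% of all genes were higher, and DESeq2 called 4 higher and 0 lower (2.56% and 1.15% of all genes by that tool). Of the 61 members with a mean of 100 counts or more 1 was called higher, and the median was 0.27, against 2.24% and 0.05 over the 6884 genes of that depth. Without knockout replicate 1, a library with stomach transcripts, 7 members passed, all higher, and the share of all genes called higher was 2.78% in that fit. The median SE of a member was 0.16 at 3 days and 0.11 at 7 days, which limits what could be resolved at 3 days. For *Mrpl45*, for example, control mice were between 36.3 and 69.9 CPM and knockout mice between 42.3 and 77.6 CPM (0.38, SE 0.16, not past the threshold).

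The genotype effect was compared between the days in 1 fit of all 26 libraries, and it differed for 16 members. For 13 the effect was higher at 7 than at 3 days and for 3 it was lower. Of 19604 genes tested 18.4% passed, 8.64% higher and 9.74% lower. The difference was positive for 57 members (52.3% of all genes), with a median of 0.21 (all genes 0.03). At a mean of 100 counts or more, 11 of 63 members (17.5%) were higher and 3 (4.76%) lower, against 13.7% and 15.9% of the 6951 genes there, so the share of members called higher was near that of genes of like depth. The medians there were 0.21 and 0.01. All 13 were among those that rose at 7 days, and the 3 were among those that fell. The same libraries of 7 days enter both comparisons, so this overlap is not separate evidence. Past the threshold, the largest differences were those of *Mrpl23* (log2 difference of the effects 0.999, SE 0.30, edgeR adjusted p = 0.0183), *Mrps18a* (0.86, SE 0.24, edgeR adjusted p = 0.0102), *Mrps10* (0.81, SE 0.20, edgeR adjusted p = 0.00518), *Mrpl44* (0.74, SE 0.20, edgeR adjusted p = 0.00925) and *Mrpl45* (0.55, SE 0.19, edgeR adjusted p = 0.0438). For *Mrpl23* the median was 5.32 CPM at 3 days and 3.20 CPM at 7 days in control mice, and 4.91 and 6.05 CPM in knockout mice. The call for *Mrpl45* was lost in 17 of the 26 fits that left out 1 mouse each. Of the exit-tunnel members, 5 of 8 were among the 13. For *Mrpl34* the difference was -0.80 (SE 0.21, edgeR adjusted p = 0.00604), for *Mrpl18* -0.70 (SE 0.22, edgeR adjusted p = 0.0245) and for *Mrpl49* -0.65 (SE 0.14, edgeR adjusted p = 0.00146). None of these 3 was lower in knockout mice at 3 days: *Mrpl34* was between 137 and 273 CPM in control and between 159 and 259 CPM in knockout mice, with a log2 fold change of 0.17 (SE 0.17), and that of *Mrpl18* was 0.20 (SE 0.17) and that of *Mrpl49* 0.16 (SE 0.11). For *Mrpl52*, *Mrps6*, *Mrpl53* and *Mrpl54*, which rose at 7 days, the difference between the days did not pass the threshold (0.30, 0.62, 0.30 and -0.03). Across the 78 members, 54 were positive at both days, 13 positive at 3 and negative at 7 days, 9 negative at 3 and positive at 7 days and 2 negative at both.

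**Figure D4:**
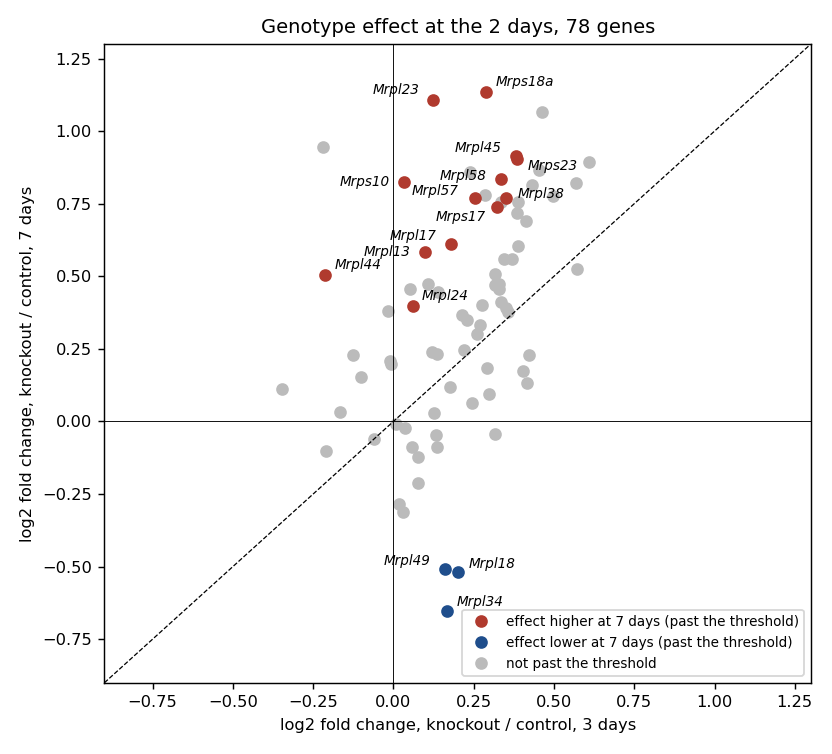
Log2 fold change between knockout and control mice at 3 days (x axis) and at 7 days (y axis) for the 78 genes; the dashed line marks equal values. Red points (13 genes) lie above and blue points (3 genes) below the line by a difference past the threshold, and *Mrpl34*, *Mrpl18* and *Mrpl49* are positive at 3 and negative at 7 days.

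Between control mice of 7 and of 3 days, 25 members were higher at 7 days and 0 lower (all genes 36%, of them 19.7% and 16.3%), but this direction rests on the scaling. At an unadjusted p under 0.05, 37 were higher and 1 lower, and DESeq2 called 23 higher and 1 lower (18.9% and 18.7% of all genes by that tool). At a mean of 100 counts or more, 23 of 61 members (37.7%) were higher and 0 lower, against 42.2% higher and 13.7% lower of the 6932 genes there, and the medians were 0.23 and 0.22. The members' share of higher calls and their median were thus near those of genes of like depth. All control mice of 7 days were above all of 3 days for 1 member, *Mrpl55*, and below them for 3, *Mrpl11*, *Mrpl13* and *Mrpl57*, the last 2 named after their values were seen (3.94% and 15% of all genes, on the CPM scale, with no factors). With library totals in place of TMM factors 5 were higher and 10 lower, where 9.56% of all genes were higher and 35.7% lower, and the median log2 fold change of the members was -0.13 in place of 0.22. The median of all genes moved by -0.36 with that change. Past the threshold, the largest differences were those of *Mrps21* (bS21m, between 2.92 and 5.76 CPM at 3 days and between 3.89 and 13.6 CPM at 7 days, log2 fold change 1.45, SE 0.28), *Mrpl55* (bL31m, 0.83, SE 0.14), *Mrpl54* (0.81, SE 0.14), *Mrpl34* (0.72, SE 0.14) and *Mrpl27* (bL27m, 0.70, SE 0.14). With library totals these were 1.08, 0.47, 0.44, 0.35 and 0.33, and *Mrpl34* and *Mrpl27* no longer passed. All 10 enterocyte and all 5 goblet cell genes were higher in control mice of 7 days and all 6 smooth muscle genes lower, with smooth muscle sums between 1628 and 2933 CPM at 3 days and between 579 and 1037 CPM at 7 days. Their part in the difference was not tested. Any batch tied to the day and the day itself cannot be told apart. Of the 25, 12 rose in knockout mice at 7 days, 10 were not called and 3 fell, namely *Mrpl34*, *Mrpl49* and *Mrps12*. On the CPM scale, with no factors, their control medians at 3 and 7 days were 210 and 269 for *Mrpl34*. They were 26.6 and 28.1 for *Mrpl49* and 55.9 at both days for *Mrps12*.

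The rest of the machinery was read from lists of known components. Of the 5 other proteins of this ribosome, 4 rose at 7 days (19.7% of all genes). They were *Chchd1* (0.75, SE 0.11), *Gadd45gip1* (0.49, SE 0.08), *Dap3* (0.40, SE 0.09) and *Aurkaip1* (0.39, SE 0.10), and *Ptcd3* did not pass (0.17, SE 0.18). *Chchd1* was between 43.5 and 53.5 CPM in control and between 65.9 and 96.7 CPM in knockout mice. The 2 rRNAs of the ribosome, which are mitochondrial transcripts, did not pass. *mt-Rnr1* had a log2 fold change of -0.10 (SE 0.08) and *mt-Rnr2* of 0.09 (SE 0.11) at 7 days. In these libraries, which are primed from poly(A), their counts need not follow the amount of rRNA.

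Of 26 assembly factors, 12 rose and 2 fell at 7 days (median 0.39), where 19.7% of all genes rose and 18.8% fell. The largest rises were those of *Gtpbp6*, a GTPase that acts on the large subunit (between 2.12 and 5.10 CPM in control and between 9.60 and 13.3 CPM in knockout mice, 1.62, SE 0.18), and of *Nsun4*, an rRNA methyltransferase (1.24, SE 0.14). *Mtg1*, another GTPase of the large subunit (1.08, SE 0.18), *Ddx28*, an RNA helicase (0.96, SE 0.13), and *Mpv17l2* (0.82, SE 0.09) followed. *Trub2*, a pseudouridine synthase, and *Mrm2*, which methylates the large rRNA, fell by 0.59 (SE 0.14) and 0.57 (SE 0.20). Of 15 translation factors and related proteins tested, 4 rose (26.7%) and 2 fell (13.3%), with a median of 0.11. These shares were near those of all genes (19.7% and 18.8%). They were below those of genes with a mean of 100 counts or more (33.0% and 27.0%). *Lrpprc*, which stabilises mitochondrial mRNAs, was between 254 and 387 CPM in control and between 522 and 634 CPM in knockout mice (0.93, SE 0.11), and *Mrrf*, the recycling factor (0.84, SE 0.15), and the elongation factors *Tsfm* (0.52, SE 0.18) and *Gfm1* (0.45, SE 0.12) rose too. *Oxa1l*, the insertase that takes proteins from the exit tunnel into the membrane, was between 122 and 185 CPM in control and between 81.2 and 93.2 CPM in knockout mice (-0.80, SE 0.12), and the release factor *Mtrf1l* fell by 0.64 (SE 0.17). The elongation factor *Tufm* (-0.31, SE 0.26) and the initiation factor *Mtif2* (0.06, SE 0.11) did not pass. At 3 days 0 of the genes of these 4 lists passed the edgeR threshold, with 4, 1, 6 and 2 at an unadjusted p under 0.05 and 1, 1, 1 and 2 called by DESeq2. Of all genes 1.43% passed by edgeR and 7.52% were higher at the unadjusted p, and DESeq2 called 2.56% higher and 1.15% lower. Of 75 cytosolic ribosomal protein genes tested, 48 rose and 2 fell at 7 days (median 0.73), again beside 19.7% and 18.8% of all genes.

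**Figure D5:**
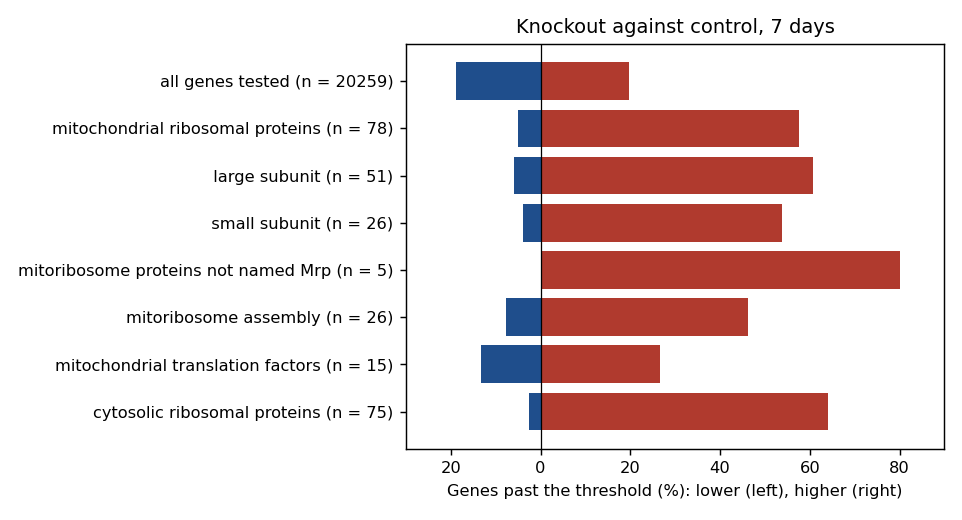
Share of genes past the threshold at 7 days (x axis, %), with those higher in knockout mice to the right and those lower to the left, for all 20259 genes tested and for 7 lists or subunits. The mitochondrial ribosomal proteins (45 of 78 higher, 4 lower) lie between the assembly factors (12 of 26 higher) and the cytosolic ribosomal proteins (48 of 75 higher).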

How the data were processed

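Libraries of 3′ ends (QuantSeq, forward protocol) were made from pieces of proximal SI of 26 mice. The authors trimmed the reads with cutadapt 2.10, aligned them to GRCm38 and counted primary alignments on exons with featureCounts 2.0.1, splitting reads on several genes into fractions. They state no strand option. The deposited values are these estimated counts, not normalized, and a deposited CPM table was not used. The design assumed whole numbers, so counts were rounded. CPM here were computed from each library's total count.

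Genes at 0 in most samples of a group compared were left out. edgeR 4.0.16 in R 4.3.3 was used (TMM factors, quasi-likelihood test, Benjamini-Hochberg adjusted p under 0.05 over all genes tested), with 1 fit per comparison. An SE is the log2 fold change, without its sign, over the root of edgeR's F. Alternatives were DESeq2 1.42.0, 3 other scalings, 2 other filters, 1 fit of all libraries, the replicate number as a block, covariates for pancreas and stomach scores, and each mouse left out in turn. Leaving out the 7 libraries with over 5000 CPM of pancreas or stomach transcripts was added after seeing the data. The code was tested on simulated data. Exon overlaps (at least 20 bases) came from a GRCm38 annotation and promoters from RefSeq.

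Members and lists were chosen with earlier results of these data known. Named members were, per comparison, up to 5 rises and 5 falls among calls on a mean of 20 counts or more, the S18 homologues, the stalk, *Mrpl44*, *Mrpl45*, *Mrpl58* and *Mrps36*. All genes of the 2 lists of other ribosome components were named, as were, of the assembly and translation lists, up to 5 rises and 5 falls at 7 days with *Tufm*, *Lrpprc* and *Mtif2*. The targeted gene is not reported here. Of 113 listed symbols 112 were in the table. Of 72 pairs of libraries within a group, 0 were identical. Replicates are separate mice.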

Additional observations from a re-analysis of the deposited data

Results flagged for a closer look

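Of 100 sets of values (24 named members and the summed share, in 4 groups each), 10 had a mouse far from the rest of its group. A nominal rate of 1 in 20 would give 5.0. The sets share the same mice and are not independent, so 10 cannot be read as an excess. In control mice of 3 days *Mrpl10* was at 18.3 CPM in replicate 5 (others between 28.6 and 33.7 CPM). In control mice of 7 days it was at 29.6 CPM in replicate 1 (others between 22.1 and 24.0 CPM). Knockout replicate 1 of day 3 was low for *Mrpl18*, at 50.9 CPM, and for *Mrpl45*, at 42.3 CPM. Knockout replicate 5 of that day was low for *Mrpl52*, at 64.0 CPM, and for *Mrps21*, at 0.504 CPM. *Mrps10* was high in knockout replicate 7 of day 3, at 12.7 CPM, and in knockout replicate 2 of day 7, at 20.8 CPM. Control replicate 2 of day 7 was high for *Mrps18a*, at 32.4 CPM (others between 13.5 and 18.3 CPM), and for *Mrps18b*, at 4.78 CPM (others between 0.508 and 1.54 CPM). Control replicate 5 and knockout replicate 1 of day 3 and control replicate 2 of day 7 are the libraries with the highest stomach sums (25955, 10481 and 12022 CPM), and the part of these transcripts in the values was not tested.

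For 16 of the 78 members the genotype effect differed between the days by the interaction term of edgeR, 13 higher and 3 lower. Of all 19604 genes tested 18.4% passed, so the number of calls does not set the members apart. Of the members 16.7% were higher and 3.85% lower, against 8.64% and 9.74% of all genes. At like depth, 17.5% of members and 13.7% of genes were higher, and 4.76% and 15.9% lower. The difference in log2 fold change (7 days minus 3 days) was 0.999 for *Mrpl23*, 0.86 for *Mrps18a*, 0.81 for *Mrps10*, 0.74 for *Mrpl44*, 0.55 for *Mrpl45*, 0.54 for *Mrps23*, 0.53 for *Mrpl57*, 0.52 for *Mrpl58*, 0.50 for *Mrpl13*, 0.45 for *Mrpl17*, 0.44 for *Mrpl38*, 0.44 for *Mrps17* and 0.36 for *Mrpl24*. It was -0.65 for *Mrpl49*, -0.70 for *Mrpl18* and -0.80 for *Mrpl34*. Without the libraries with most pancreas or stomach transcripts, *Mrpl23* had a difference of 0.99 with an edgeR adjusted p of 0.0547.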

How the results depend on the processing

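At 7 days between 42 and 51 members passed the threshold under every alternative, and between 44 and 50 when a mouse was left out, with a median log2 fold change between 0.34 and 0.43. Of all genes, between 13.5% and 26.4% were higher and between 14.2% and 25.7% lower under the alternatives. When a mouse was left out these shares were between 17.4% and 19.6% and between 17.8% and 19.8%. At 3 days the count was 4 with DESeq2, 7 in 1 fit of all 26 libraries, 0 with library totals and 0 with the replicate block, and between 0 and 7 without 1 mouse (median between 0.20 and 0.31). In the same order, 2.56%, 2.92%, 0.592% and 0.381% of all genes were higher and 1.15%, 0.983%, 0.525% and 0.0963% lower. The main fit gave 1.11% and 0.323%. Without 1 mouse, between 0.692% and 2.78% of all genes were higher and between 0.119% and 0.930% lower. Library totals moved the median of all genes at 3 days by -0.10, and the members' median was 0.27 above it, as in the main fit. With pancreas and stomach scores as covariates the members' median at 3 days was 0.18 above that of all genes. For the difference between the days, the replicate block gave 9 members (6 higher, 3 lower), and leaving out 1 mouse between 9 and 18 (median between 0.14 and 0.23). It was 9 or 10 without knockout replicate 2 or 6 or control replicate 3, 5 or 6 of day 7. In control mice, library totals gave 15 members and a median of -0.13, and upper quartile factors 16 members (14 higher, 2 lower) and a median of 0.0724, where the construction of the alternative shifted all genes (median -0.41 and -0.21). Of all genes, 9.56% were higher and 35.7% lower with library totals, and 14.5% and 23.1% with upper quartile factors. Leaving out 1 control mouse gave between 19 and 30 members (median between 0.15 and 0.28). Between 17.2% and 19.6% of all genes were then higher and between 13.3% and 18.6% lower. Apart from the control comparison under library totals, the sign of the members' median was kept in the alternatives run. The causes of the other changes were not tested.

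Replicate numbers were not treated as pairs. Correlations between same-numbered mice of the 2 genotypes ran from -0.39 to 0.49 at 3 days and from -0.30 to 0.49 at 7 days. These values do not show a pairing and cannot exclude one. With the block 48 members passed at 7 days (44 higher, 4 lower), where 19.4% of all genes were higher and 18.0% lower. At 3 days 2 of 7 and at 7 days 2 of 6 knockout mice correlated best with the control mouse of their number. Depth limits *Mrps18b*, *Mrps36* and *Mrps33* (named here for its low counts), with means of 12.3, 8.75 and 7.0 counts at 7 days.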
